A study of Caenorhabditis elegans with 51 samples.

Results

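The regions described here are 2114 windows that lie upstream of genes of the nematode Caenorhabditis elegans and that gained reads in animals with impaired XRN2. They were chosen from 1 pair of deeply resequenced libraries taken 10 h after a shift to 26 °C. A window was chosen if it held at least 50 counts in the xrn-2(xe31) library and if its scaled count (CPM, the count + 1 scaled to the library's total gene counts) was at least 8 times that in the wild-type (WT) library. Of 17429 windows listed in that pair of libraries 16976 had an upstream value, 4938 of them held 50 counts or more in xe31, and 14862 were not chosen. The choice rests on the readout itself, so the excess at 10 h is a description and is not tested. The tests below use only libraries that took no part in the choice.

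XRN2 is a nuclear exoribonuclease that degrades RNA from its 5′ end. When a nascent transcript is cut at its poly(A) site, the polymerase continues and the downstream stretch of RNA is left with a free 5′ end. Degradation of that stretch by XRN2 is known as the torpedo mode of transcription termination. XRN2 also degrades other nuclear RNA with a free 5′ monophosphate. Genes of C. elegans are closely packed and some are organised in operons, so a window before the start of a gene can lie after the end of its neighbour.

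All RNA came from whole L4 animals. The xe31 animals (strain HW1660) have the xe31 allele of xrn-2. They and WT animals (N2) had grown for 59 h at 15 °C before the shift to 26 °C, and were collected hourly from 0 to 10 h, with 1 library per strain and hour. The 6 h and 10 h RNA of both was sequenced again. The catalytic-dead strain HW2216 has, per its label, xe31 and a form of xrn-2 with the changes D234/236A fused to gfp. Where that form is inserted was not given in the labels. The strain was collected at 6 h and 10 h beside WT libraries of its own. N2 animals given xrn-2 RNAi or mock RNAi at 20 °C gave 1 polyA-selected library each, and 2 xrn-2 RNAi libraries and 1 mock library from which rRNA had been depleted. In whole animals, fewer cells of a type and less RNA per cell cannot be told apart.

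Gene counts per library ran from 41238235 to 57832479 in the time course (22 libraries), from 239213652 to 253142688 in the resequenced set (4), from 49628394 to 74356542 in the catalytic-dead experiment (4), from 21695913 to 23817072 in the rRNA-depleted set (3) and were 36463650 and 44605077 in the polyA RNAi pair. All upstream windows together held 0.395 to 0.752 counts per 100 gene counts in the time course. Among 7 lists of 4 cell type markers each, sperm markers summed to 554.7 to 651.7 CPM in xe31 libraries of 6 to 9 h, against 404.7 to 557.1 CPM in WT libraries, and 3 of those 4 genes rose. In the other lists at most 1 gene rose and at most 2 fell, and the part of sperm RNA in the results below was not tested.

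The transcript of xrn-2 had 3548 counts in the polyA xrn-2 RNAi library, against 4821 counts in mock, which by library totals is a log2 ratio of -0.73 (95% counting interval -0.80 to -0.67). In the rRNA-depleted set it had 1740 and 1638 counts in the libraries labelled xrn-2 RNAi, against 1555 counts in mock, so a knockdown was not detectable there. In late xe31 it stood above WT (log2 1.01 ± 0.07 SE) and in the catalytic-dead strain, whose genotype names a gfp-fused xrn-2 beside xe31, by log2 1.95 ± 0.30. The upstream window of xrn-2 itself was not chosen, with 71 counts in xe31 against 49 counts in WT.

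At 10 h in the resequenced pair, the chosen windows held 50 to 6309 counts in xe31 (median 150), against a median of 5 and a highest value of 250 counts in WT, and 327 of them were at 0 in WT. They took 25.8% of all upstream counts in the xe31 library, against 1.36% in the WT library. The rule's ratio ran from 8.04 to 3339, with a median of 29.6. A median of 8.6 upstream counts stood beside each 100 counts of the gene behind the window in xe31, against 0.198 in WT. Over all listed genes these medians were 0.815 in xe31 and 0.0965 in WT. In 251 of the chosen windows the xe31 count exceeded that of the gene, against 70 windows in WT. At 6 h, in the resequenced libraries of that hour, the chosen windows already had a median of 2.56 upstream counts per 100 gene counts in xe31, against 0.252 in WT.

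The threshold falls in a continuous range. The windows just inside it belong to mbtr-1 (ratio 8.07), the kinesin-like gene klp-16 (8.05), C11G10.1 (8.04), cisd-1 (8.04) and gtf-2H4, a subunit of transcription factor TFIIH (8.04). The windows just outside belong to the ribosomal protein gene rps-12 (7.98), copg-1 (7.98), VW02B12L.2 (7.97), idpp-15 (7.96) and B0303.16 (7.95).

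The windows gained reads gradually over the hours after the shift. Of the chosen windows, 1847 are listed in the time course. Their median log2 ratio of xe31 over WT was 0.00 at 0 h, 0.05 at 1 h, 0.38 at 2 h, 0.56 at 3 h, 0.90 at 4 h, 1.30 at 5 h, 2.06 at 6 h, 2.48 at 7 h, 2.90 at 8 h, 3.39 at 9 h and 3.87 at 10 h. The median over all listed windows stayed between -0.10 and 0.06 until 6 h and was 0.64 at 10 h. Until 6 h these medians equal the value of a window with 0 counts in both libraries. In WT 8109 of the 15022 windows were at 0 at 0 h, and 6975 at 6 h. They therefore do not show that all windows were unchanged. The chosen medians of the first hours are held near 0 too, with 673 windows at 0 in xe31 and 906 in WT at 0 h. These ratios are scaled by gene totals. The 10 h values come from the RNA that chose the windows and are shown as a description.

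Summed over the chosen windows, upstream reads came to 120.6 CPM in xe31 at 0 h, against 79.74 CPM in WT, and to 1449 CPM in xe31 at 9 h, against 66.95 CPM in WT. The WT sum peaked at 119.8 CPM at 5 h and never approached the late xe31 values. The share of chosen windows at least 2-fold above WT was 21.3% at 1 h, 41.1% at 4 h, 77.2% at 6 h and 97.1% at 9 h, against 9.3%, 15%, 31.1% and 34.4% of all listed windows. At 0 h it was 32.1%, against 17.5% of all listed windows, where most windows hold few counts and 906 of them were at 0 in WT. The hour from which a window stayed at least 2-fold above WT through 10 h was 0 to 3 h for 69, 29, 48 and 109 windows, 4 h for 255, 5 h for 318, 6 h for 430, 7 h for 258, 8 h for 148, 9 h for 118 and 10 h for 50 windows. The remaining 15 were not over 2-fold at 10 h in the time course.

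**Figure D1:**
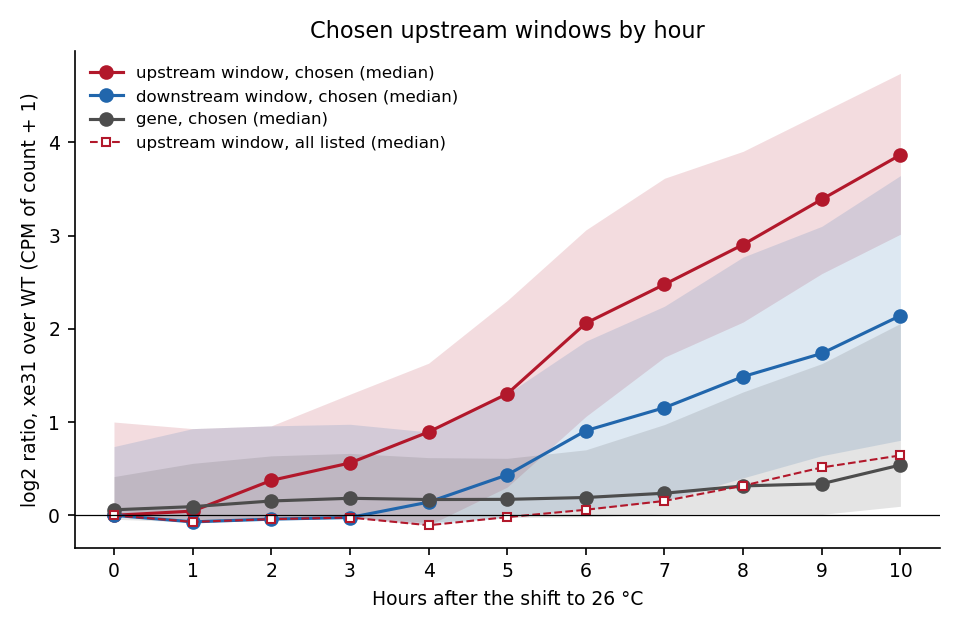
Median log2 ratio of xe31 over WT (CPM of count + 1, y axis) for the chosen upstream windows, their genes and their downstream windows at each hour after the shift to 26 °C (x axis), with shading from the 25th to the 75th percentile of windows and the median of all listed upstream windows as open squares. The chosen upstream windows reach 2.06 at 6 h and 3.39 at 9 h, while the median of their genes stays at or below 0.34 until 9 h. Until 6 h the median of all listed windows is that of a window with 0 counts in both libraries.

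Single windows show the same time course with different baselines. The window of gst-12, a glutathione S-transferase gene, held 17, 13, 23, 27, 69, 144, 320, 476, 556, 654 and 722 counts in xe31 from 0 to 10 h, against 0 to 4 counts in the WT libraries. Every xe31 library lay above every WT library. Counts of the gene gst-12 moved in parallel in both strains, with 117 to 266 counts at 6 to 9 h in xe31 and 80 to 215 counts in WT. In xe31 the window thus held more reads than its gene from 4 h onward. The late change of the window was log2 7.97 ± 0.28 (edgeR, BH-adjusted p = 3.30e-168).

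The window of ndus-8, which encodes a subunit of mitochondrial complex I, held 11 counts in xe31 at 0 h, 87 at 3 h, 506 at 6 h and 859 at 9 h, against 3 to 25 counts in WT over 0 to 9 h. From 1 h onward every xe31 library lay above every WT library, and only the count at 0 h lay inside the WT range. The gene itself, with 6880 to 10602 counts in xe31 and 7119 to 10971 counts in WT over those hours, changed little (late log2 -0.19 ± 0.03, edgeR, BH-adjusted p = 8.14e-04). Its downstream window held 0 counts in every library. For ndus-8 the window alone rose, with a late log2 change of 5.55 ± 0.20 (edgeR, BH-adjusted p = 3.51e-166).

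The window of mrps-17, a mitochondrial ribosomal protein gene, had 14 counts in xe31 at 0 h and 534 at 9 h, against 6 and 23 counts in WT. It stayed within the WT range until 3 h and lay above it from 4 h (late log2 3.42 ± 0.21, edgeR, BH-adjusted p = 1.42e-55). Its gene held 1594 to 2313 counts in xe31 and 1449 to 2162 counts in WT over 0 to 9 h. The window of klc-2, a kinesin light chain gene, reached 65, 78, 115 and 187 counts in xe31 at 6 to 9 h, against 11, 14, 14 and 13 counts in WT, and klc-2 itself had a late log2 change of 0.00 ± 0.05.

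**Figure D2:**
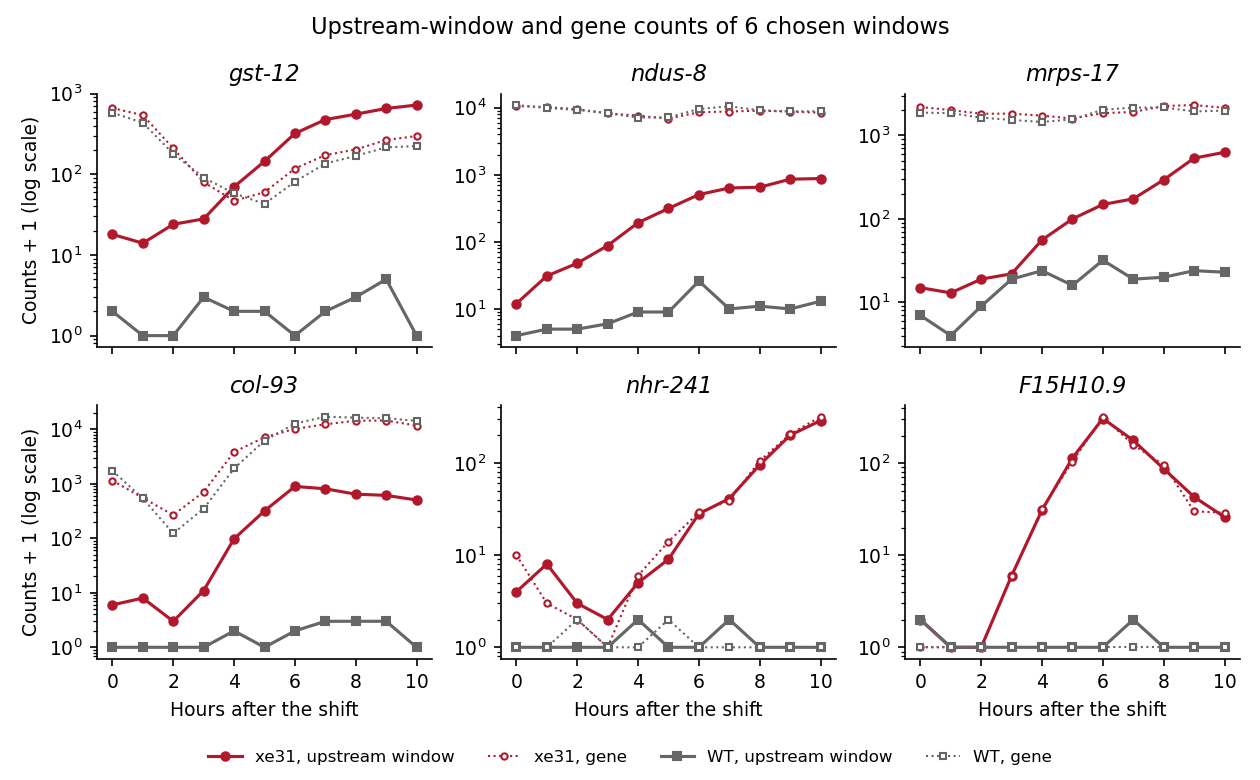
Upstream-window counts (filled) and gene counts (open) of 6 chosen windows in xe31 (circles) and WT (squares) by hour, as counts + 1 on log axes that differ between panels. In gst-12, ndus-8, mrps-17 and col-93 the window separates while the gene lines overlap; in nhr-241 and F15H10.9 the gene line climbs with the window.

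After col-166, a cuticle collagen gene with 6309 counts, the most upstream counts at 10 h in the resequenced xe31 library lay before Y37E3.1 (5035 counts), Y24F12A.1 (4301) and Y65B4BL.4 (4295). The window of Y65B4BL.4 held 309, 401, 563 and 723 counts in xe31 at 6 to 9 h, against 8, 3, 9 and 8 in WT (log2 6.01, edgeR, BH-adjusted p = 2.24e-140). That of Y24F12A.1 held 175, 227, 459 and 694 counts in xe31, against 16, 13, 20 and 20 in WT (log2 4.27, edgeR, BH-adjusted p = 1.39e-86). Y37E3.1 had a filled window in WT too, with 382, 442, 642 and 846 counts in xe31, against 88, 57, 50 and 54 in WT (log2 3.09, edgeR, BH-adjusted p = 2.95e-76), and its gene rose by log2 0.43. In all 3 windows each late xe31 library lay above each WT library.

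To test the windows in libraries that did not choose them, upstream counts of the 20 time-course libraries of 0 to 9 h were fitted with hour as a block, and the strain effect was taken over 6 to 9 h (late), 3 to 5 h (middle) and 0 to 2 h (early). With 1 library per strain and hour, the hours stand in for replicates. The spread behind the p-values is that between these libraries alone and may be technical. In the upstream-window fits, here and in the catalytic-dead and rRNA-depleted sets, this spread was pooled over all windows tested. Their p-values, many far smaller than so few libraries alone allow, therefore do not measure the spread of each single window. Windows with at least 20 counts over the 20 libraries were tested, which kept 7980 windows, 1757 of them chosen. The other 357 chosen windows were not listed or held too few counts.

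In late xe31, 1608 of the 1757 chosen windows rose and none fell (edgeR, BH-adjusted p under 0.05, with 0 down also at unadjusted p under 0.05 and by DESeq2), against 35.3% up among all windows tested. Their median log2 change was 3.50, against 0.83 over all tested. Most chosen windows entered the test through their xe31 counts and had to differ. Of the 501 with at least 20 counts in the 10 WT libraries alone, 452 rose, with a median of 2.53, against 26.4% up and a median of 0.37 among all 4452 windows with as many WT counts. DESeq2 called 1002 of the chosen windows up. WT held no read at all in 149 of the chosen windows over 0 to 9 h.

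In middle xe31, 358 chosen windows rose and 2 fell, against 6.79% up among all tested. Their median log2 change was 1.60, against 0.40 over all tested. In early xe31, 89 rose and none fell (edgeR; 4 were down at unadjusted p under 0.05 and 0 by DESeq2), against 1.65% up among all tested. The median was 0.72, against 0.16 over all tested. Of the 501 with WT counts, 132 rose in the middle hours (median 0.99) and 29 in the early hours (median 0.45), against 5.82% and 1.33% of all windows with as many WT counts. DESeq2 called 138 chosen windows up in the middle hours and 23 in the early hours. Without the 5 h libraries 173 chosen windows rose in the middle hours, and without those of 0 h, 1 h or 2 h 59, 52 or 34 rose in the early hours. The strain effect was larger late than early in 282 chosen windows and smaller in 2, by a test of the difference itself. Among all tested 5.19% were larger and 0.827% smaller. Of the 501 with WT counts it was larger in 194, against 6.9% of all windows with as many WT counts. Without the 0 h libraries 183 were larger.

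Among the windows called up early are some that were already high at 0 h. The window of far-8, which encodes a fatty acid and retinol binding protein, held 52, 52 and 65 counts in xe31 at 0 to 2 h, against 0, 0 and 1 count in WT, and 172, 254, 283 and 240 counts in xe31 at 6 to 9 h, against 1, 6, 2 and 0 in WT. All of these xe31 libraries were above all WT libraries. The window of Y49A3A.4 held 117, 104 and 101 counts in xe31 at 0 to 2 h, against 39, 28 and 28 in WT. The window of fipr-2, a gene related to fungus-induced proteins, ran the other way in time, with 47, 80 and 94 counts in xe31 at 0 to 2 h and 62, 41, 36 and 20 at 6 to 9 h, against 28, 32 and 13 and then 0 or 1 count in WT.

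A few windows followed another course. Upstream counts of mpz-6, a gene for a protein with several PDZ domains, were 13, 7 and 3 in xe31 at 3 to 5 h, against 41, 13 and 6 in WT (log2 -1.45 ± 0.45, edgeR, BH-adjusted p = 0.022), and were higher in xe31 from 6 h. Those of F27C1.1 were 15, 9 and 14 in xe31, against 32, 24 and 24 in WT (log2 -1.21 ± 0.39, edgeR, BH-adjusted p = 0.0319). Both calls were lost with DESeq2 and without the 3 h or the 4 h libraries, and without the hour block. That of F27C1.1 was also lost without the 5 h libraries, without TMM scaling, with no minimum count, with filterByExpr and against WT of 1 hour earlier or later. The change of mpz-6 turned to log2 0.17 when xe31 was set against WT of 1 hour later. The window of F15H10.9 peaked instead of filling steadily, with 5, 30, 113, 305, 176, 86 and 42 counts in xe31 from 3 to 9 h, against 0 or 1 count in WT.

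The rule asked for a rise of the window at 10 h and set no limit on the gene behind it. A larger change of windows than of genes in the neighbouring hours is therefore partly set by the choice. The genes behind the windows changed less than the windows. Of 1981 such genes tested in late xe31, 703 rose and 220 fell (edgeR, BH-adjusted p under 0.05), against 13.8% up and 16.2% down among the 16860 genes tested. Their median log2 change was 0.15, against -0.03 over all genes. Without the 8 h libraries 140 fell, without TMM scaling 103 fell (median 0.24), and without the hour block 349 rose and 28 fell. Among the 1608 genes whose window rose, 541 rose, 193 fell and 874 were not called, and 296 rose over 2-fold. Measured as the upstream count relative to the gene count in 1 model, 1347 of 1757 chosen windows rose and 4 fell. Among all windows tested 28.1% rose. The median log2 change was 3.12, against 0.81 over all tested. Of the 501 with WT counts 363 rose, with a median of 2.36, against 17.9% and a median of 0.38 among all windows with as many WT counts. Window and gene changes had a Spearman rho of 0.231 across 1757 windows, which share their libraries and are given as a description.

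**Figure D3:**
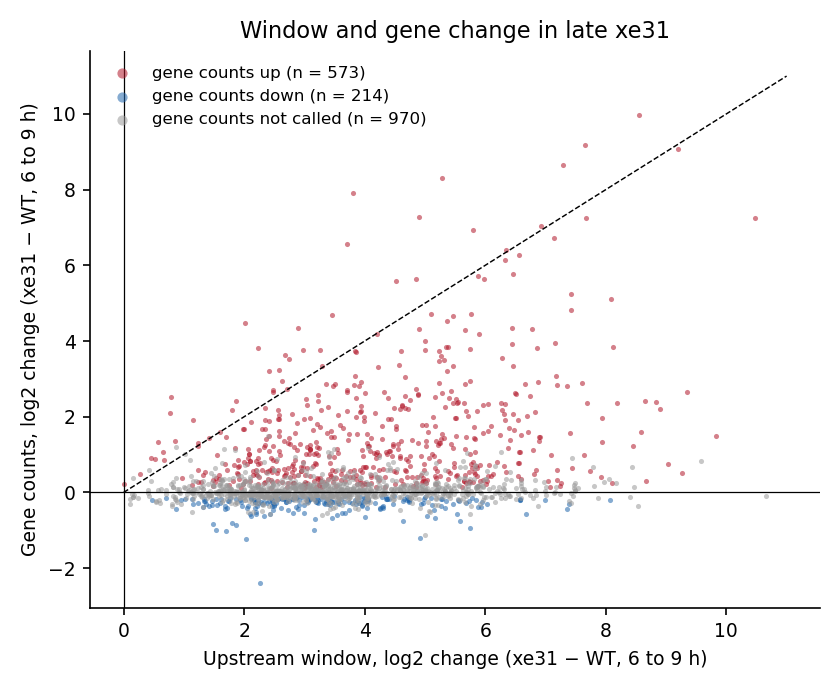
Late log2 change of gene counts (y axis) against that of the upstream window (x axis) for 1757 chosen windows tested as both, coloured by the call on the gene (573 up, 214 down, 970 not called); the dashed line marks equal change. Most genes lie near 0 on the y axis while their windows spread over log2 0 to 10. The windows were chosen for a rise at 10 h and the genes were not.

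Whether the gene rose varied with its own level. The chosen windows made up similar shares at all gene levels: they were 12% of listed windows for genes under 0.1 CPM (mean of the 20 time-course libraries), 14.1% at 0.1 to 1 CPM, 12.9% at 1 to 10 CPM, 11.8% at 10 to 100 CPM and 11.2% over 100 CPM. In the lowest class, 34 of 40 tested genes rose in late xe31, then 261 of 378, 232 of 590, 150 of 781 and, in the highest class, 26 of 192. The median gene log2 changes from the lowest to the highest class were 3.30, 1.67, 0.26, 0.00 and -0.06. Among all genes tested, the shares that rose were 46.8%, 23.7%, 15.3%, 9.97% and 6.59% in the same order. Genes of low level pass the count filter largely through xe31, and all 91 tested genes with under 20 counts in the 10 WT libraries rose, so the counts in the lowest classes are partly set by the filter. Among the genes with at least 20 WT counts 3 of 9, 202 of 319, 231 of 589, 150 of 781 and 26 of 192 rose in the same order. The windows' own medians differed less, from 3.39 over 100 CPM to 3.84 at 0.1 to 1 CPM, with a single window tested under 0.1 CPM.

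Some genes that hardly had a read in WT rose with their windows. The nuclear hormone receptor gene nhr-241 had 28, 38, 104 and 204 counts in xe31 at 6 to 9 h, against 0 in each WT library, and its window had 27, 40, 94 and 198 counts, against 0, 1, 0 and 0. Window and gene were nearly equal in each xe31 library. The gene egas-2, of the degenerin and epithelial sodium channel superfamily, had 7, 62, 293 and 556 counts in xe31, against 0, 0, 1 and 1 in WT, while its window had only 0, 3, 11 and 11 counts, against 0 in WT.

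The T-box gene tbx-8 had 87, 203, 199 and 154 counts in xe31 at 6 to 9 h, against 1, 0, 3 and 0 in WT (late log2 7.05 ± 0.44, edgeR, BH-adjusted p = 1.21e-05), and its window 24, 54, 68 and 60 counts, against 0, 0, 0 and 1. The claudin-like gene clc-20 was measurable in both strains, with 150, 188, 237 and 208 counts in xe31, against 44, 70, 83 and 69 in WT (log2 1.49 ± 0.23, edgeR, BH-adjusted p = 9.37e-04). Its window held 127, 152, 158 and 120 counts in xe31, against 0 in all 4 WT libraries, which is at least 38.1-fold higher in each of the 4 hours against a floor of 3 counts per library.

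The downstream windows of the same genes, behind the gene end, rose as well. Of 1404 tested, 920 rose and 10 fell in late xe31 (edgeR, BH-adjusted p under 0.05), against 43.7% up among all downstream windows tested, with a median log2 change of 1.82 against 0.99 over all. Many of these passed the filter through xe31: of the 826 with at least 20 counts in the 10 WT libraries 486 rose, with a median of 1.22, against 37.2% up and a median of 0.59 among all downstream windows with as many WT counts. Among 1228 genes whose upstream window rose and whose downstream window was tested, 828 downstream windows rose too, 8 fell and 392 were not called. The window pair of col-166 shows the joint rise, with 142, 186, 211 and 480 upstream counts and 41, 70, 87 and 181 downstream counts in xe31 at 6 to 9 h. WT libraries had 0 counts in both windows at these hours, so the upstream window was at least 49.4-fold higher at 6 h and at least 152-fold higher at 9 h. Counts of the gene col-166 did not differ detectably (late log2 -0.11 ± 0.13).

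Among the larger gene families, cuticle collagens had the largest share, with 36 of 140 listed windows chosen (25.7%), against 12.5% of all listed windows. C-type lectin genes followed with 35 of 184 (19%), glutathione S-transferases with 8 of 42 and the neuropeptide and insulin genes (flp, nlp, ins) with 23 of 129. F-box genes of the fbxa group had 9 of 140 and nuclear hormone receptors 15 of 215. Members of these families can be near-identical and how shared reads were counted was not given in the sources used here. Single members are therefore uncertain.

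The genes behind these windows are given by family, beside 703 up and 220 down among the 1981 chosen genes tested (35.5% and 11.1%) and 13.8% and 16.2% among all genes. Of 43 tested genes for chemoreceptors of the str, srh and related groups behind chosen windows (64 of 493 windows), 39 rose and none fell in late xe31, with a median log2 change of 2.90. Genes of low level pass the filter largely through xe31, and how many of the 43 held enough WT counts was not determined. Among all genes tested 46.8% rose under 0.1 CPM and 23.7% at 0.1 to 1 CPM. The 39 are therefore not read as a trait of the family. Among 35 collagen genes 10 rose and 4 fell, with a median of 0.14, although 32 of their 33 tested windows rose. Among 22 neuropeptide and insulin genes 6 rose and 3 fell, with a median of -0.04, while all 21 of their tested windows rose. These window counts stand beside 1608 of the 1757 chosen windows tested and 35.3% of all windows tested.

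The window of the collagen gene col-93 held 892, 808, 643 and 612 counts in xe31 at 6 to 9 h, against 1, 2, 2 and 2 in WT (log2 8.54 ± 0.26, edgeR, BH-adjusted p = 9.04e-224). Its gene had 10156 to 14460 counts in xe31, against 12683 to 16978 in WT, with overlapping ranges (log2 -0.35 ± 0.17, edgeR, BH-adjusted p = 0.153, and 0.05 was crossed only when the 2 h libraries were left out).

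The genes of 3′ end processing and nuclear RNA decay were looked up as a list of 29. Of these, 5 rose in late xe31: xrn-2, the RNA kinase gene clpf-1 (log2 1.15), the cytoplasmic exonuclease gene xrn-1 (0.44), the termination factor pcf-11 (0.23) and the exosome-associated nuclease crn-3 (0.12). The cleavage factor genes cpsf-1, cpsf-2 and cfim-2, the gene cids-1 for a protein that binds the polymerase tail, and the exosome subunits exos-1, exos-2, exos-3 and exos-4.1 fell, all by less than log2 0.30. These 5 and 8 of 29 stand beside 13.8% up and 16.2% down among all genes tested. Of the 25 with a listed upstream window, 4 had their window chosen, beside 12.5% of all listed windows.

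The window of cpsf-4, a zinc finger subunit of the cleavage and polyadenylation factor, was the largest of these, with 6841 counts in xe31 at 6 h and 2015 at 10 h in the resequenced libraries, against 21 and 43 counts in WT. In the time course it rose by log2 8.16 (edgeR, BH-adjusted p = 4.63e-219) while the gene did not pass (log2 0.26, BH-adjusted p = 0.106). The window of the exosome nuclease dis-3 had 188 counts in xe31 at 10 h, against 6 in WT (late log2 4.29, a call lost with DESeq2), and that of the exosome subunit exos-3 had 82 against 5 (late log2 3.36). The window of suf-1, a cleavage stimulation factor gene, had 235 against 28 counts and rose by log2 1.44 (edgeR, BH-adjusted p = 0.00623), a call lost with DESeq2, without the 9 h libraries and against WT of 1 hour later.

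Libraries of the catalytic-dead strain, which the rule did not use, held still more reads in the chosen windows. The summed level was 3256 CPM in catalytic-dead at 6 h, against 99.12 CPM in its WT, and 4817 CPM at 10 h, against 78.21 CPM in its WT, over 2002 chosen windows listed there. Of 1876 tested, 1594 rose and none fell (edgeR, hour as block, 1 residual degree of freedom; 1 down at unadjusted p under 0.05, 0 by DESeq2), against 49.5% up among 9661 windows tested. The median log2 change was 5.10, against 2.76 over all. Of 311 chosen windows with at least 10 counts in the 2 WT libraries alone, 237 rose, with a median of 3.30, against 23.6% up among all 3354 windows with as many WT counts. DESeq2 called 764 of the chosen windows up. By library totals the 6 h and 10 h medians were 3.99 and 4.56. TMM scaling lowers these log2 ratios by 0.21 to 0.50 in this experiment, and by 0.02 to 0.17 in the time course, 0.25 to 0.34 in the rRNA-depleted set and 0.39 in the polyA pair.

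Single windows stood at other levels in this strain than in xe31. The far-8 window held 7015 and 9806 counts in catalytic-dead at 6 and 10 h, against 5 and 4 counts in WT (log2 10.68 ± 0.40, edgeR, BH-adjusted p = 1.56e-145), next to 15188 and 25379 counts of its gene, against 7570 and 4825. That of clc-20 held 2930 and 3357 counts, against 2 and 2 (log2 10.40 ± 0.55, edgeR, BH-adjusted p = 5.16e-75). In the time course neither window passed 369 counts in xe31.

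Other windows had smaller fitted changes there than in late xe31. The ndus-8 window held 216 and 92 counts in catalytic-dead, against 15 and 10 in WT (log2 3.40 ± 0.80, edgeR, BH-adjusted p = 1.38e-04), a call lost with DESeq2. That of cpsf-4 did not pass (log2 1.83, BH-adjusted p = 0.188). The difference between the strains was not tested. The window of eva-1, a gene for a transmembrane receptor of SLT-1, stood at 666 and 605 counts in catalytic-dead, against 0 and 0 in WT, at least 293-fold and 206-fold higher. In late xe31 it had only 1 to 3 counts, against 0 or 1 in WT, and was not tested there. Across 1653 windows tested in both, the changes in late xe31 and catalytic-dead had a Spearman rho of 0.522, a description over windows that share genes and depth.

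**Figure D4:**
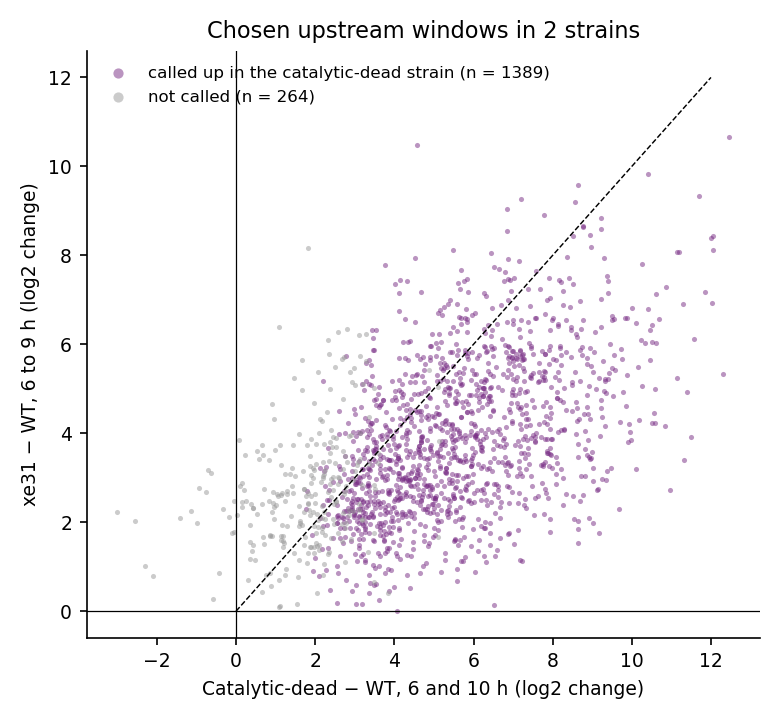
Log2 change in late xe31 (y axis, 6 to 9 h) against that in the catalytic-dead strain (x axis, 6 and 10 h) for 1653 chosen windows tested in both, with 1389 called up in catalytic-dead in purple and the rest in grey; the dashed line marks equal change. Most points lie right of the line, with a wide spread of both strains' changes.

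Fewer genes than windows were called in the catalytic-dead strain, but the fits of genes and of windows were separate and differed in sensitivity. The gene col-93, at log2 -6.72 ± 0.50, had an edgeR BH-adjusted p of 0.0305. The ndus-8 window, at log2 3.40 ± 0.80, had 1.38e-04. The counts of called genes and windows are therefore not directly comparable. Of 2011 genes tested behind chosen windows, 121 rose and 33 fell (edgeR, BH), against 2.6% up and 1.33% down among 17264 genes. Their median log2 change was 0.39, against 0.05 over all genes. Of the 1842 genes with at least 10 counts in WT 82 rose (4.45%), with a median of 0.17. Among all genes with as many WT counts 1.92% rose, with a median of -0.03. These gene counts depend on the model: DESeq2 called 459 up and 223 down, and without TMM scaling 26 rose and 10 fell. At 10 h alone the gene median by totals was 1.15, and at 6 h alone 0.49. Of 1588 genes whose window rose, 117 rose, 16 fell and 1455 were not called. Downstream windows rose as well, with 1047 of 1625 up and 14 down, against 51.4% up among all tested. Their median log2 change was 3.55, against 2.70 over all tested. Many of these too passed the filter through the catalytic-dead libraries: of the 690 with at least 10 counts in WT 345 rose, with a median of 1.86, against 36.2% up and a median of 1.18 among all downstream windows with as many WT counts.

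Single genes moved both ways. Counts of eva-1 were 8543 and 6803 in catalytic-dead, against 429 and 134 in WT (log2 4.85 ± 0.41, edgeR, BH-adjusted p = 0.0364). Those of col-93 were 131 and 59, against 10769 and 6655 (log2 -6.72 ± 0.50, edgeR, BH-adjusted p = 0.0305), while the col-93 window held 580 and 133 counts, against 3 and 2 (log2 6.84 ± 0.87, edgeR, BH-adjusted p = 2.58e-13). The col-93 window thus held more counts than its gene in both catalytic-dead libraries. Counts of klp-16 were 1960 and 2125 in catalytic-dead, against 9707 and 12110 in WT (log2 -2.55 ± 0.37, edgeR, BH-adjusted p = 0.0471), a call lost without TMM scaling.

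In the polyA RNAi pair, which has 1 library per treatment and no test, the chosen windows summed to 1390 CPM in xrn-2 RNAi, against 84.69 CPM in mock, over 1866 windows listed. Of 1092 with at least 10 counts over the pair, 1028 were at least 2-fold higher in xrn-2 RNAi and 5 at least 2-fold lower, against 62.8% higher among the 4754 windows counted. Their median log2 ratio was 3.62, against 1.62 over all. Of the 1866 windows, 1007 held no read in mock, so many of the 1092 passed this limit through the xrn-2 RNAi library. These shares are therefore partly set by the limit. How many of the 1092 held enough mock counts alone was not determined. With no count limit, 79.3% of the 1866 were at least 2-fold higher, against 38.4% of all 15231 listed windows. The medians were then 2.52 and 0.71. Of the 1945 genes with enough counts behind chosen windows, 749 were at least 2-fold higher and 156 lower. Among all genes counted 30.6% were higher and 7.83% lower. The median of the 1945 was 0.64, against 0.45 over all genes counted. The share lower is near that over all genes. Every value here compares 2 libraries, not conditions.

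The windows with the largest ratios were nearly empty in mock. The far-8 window held 1594 counts in xrn-2 RNAi, against 1 in mock (log2 9.35, 95% counting interval 7.87 to 15.65). That of clc-20 held 954, against 0, at least 260-fold higher, and that of F47C12.8 337, against 0, at least 91.8-fold higher. The gst-12 window held 382 counts, against 1 (log2 7.29, interval 5.80 to 13.59). Other chosen windows held few reads or none in this pair. The ndus-8 window had 12 counts in xrn-2 RNAi against 3 in mock, and its interval of log2 -0.18 to 4.17 includes no change. The window of C49F5.5 had 4 counts against 0, and that of ppt-1 0 counts in both, although both are among the 10 largest by the rule's ratio.

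In the rRNA-depleted set, where reads need no poly(A) tail, the chosen windows stood out less. The 1024 listed windows summed to 3690 and 2801 CPM in the libraries labelled xrn-2 RNAi, against 2001 CPM in mock, with median log2 ratios of 1.05 and 0.82. Of 851 tested, 151 rose and 6 fell (edgeR, BH, 1 residual degree of freedom), against 7.68% up among 6423 windows. DESeq2 called 41 up, and with no minimum count none passed. Of 326 chosen windows with at least 10 counts in the mock library alone, 16 rose, with a median of 0.23, against 2.42% up and a median of -0.10 among all 3185 windows with as many mock counts. Of 1788 genes behind the windows none was called up or down (edgeR, BH), against 0.0% up and 0.0% down among 15956 genes. Here too the gene and window fits differed in sensitivity, so the counts of called windows and genes are not directly comparable. The gene Y49A3A.4 was not called at log2 4.63 ± 0.71, while its window was called at log2 2.40 ± 0.57. At unadjusted p under 0.05 263 were up and 91 down, and DESeq2 called 124 up and 44 down.

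Several windows were nevertheless large in both libraries labelled xrn-2 RNAi. That of far-8 held 772 and 491 counts, against 1 in mock (log2 8.85 ± 0.76, edgeR, BH-adjusted p = 1.52e-27, lost with no minimum count). That of fipr-2 held 242 and 342 counts, against 0, at least 83.4-fold and 107-fold higher. The globin gene window of glb-27 held 114 and 212 counts, against 0, at least 39.3-fold and 66.6-fold higher.

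A few windows were lower in these libraries. The window of the collagen gene col-159 held 119 and 32 counts, against 766 in mock, along with a gene at 316 and 88 counts, against 2385. That of C06E8.5 held 68 and 13, against 335, with a gene at 253 and 29, against 1965. Windows of gsto-1 (3 and 3 counts, against 18), doxa-1 (10 and 5, against 31) and C16E9.1 (1 and 0, against 26) were lower too. These are 5 of the 6 that were called down by edgeR, BH-adjusted p between 1.05e-16 and 0.0195, and all 5 calls were lost with DESeq2 and with no minimum count.

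**Figure D5:**
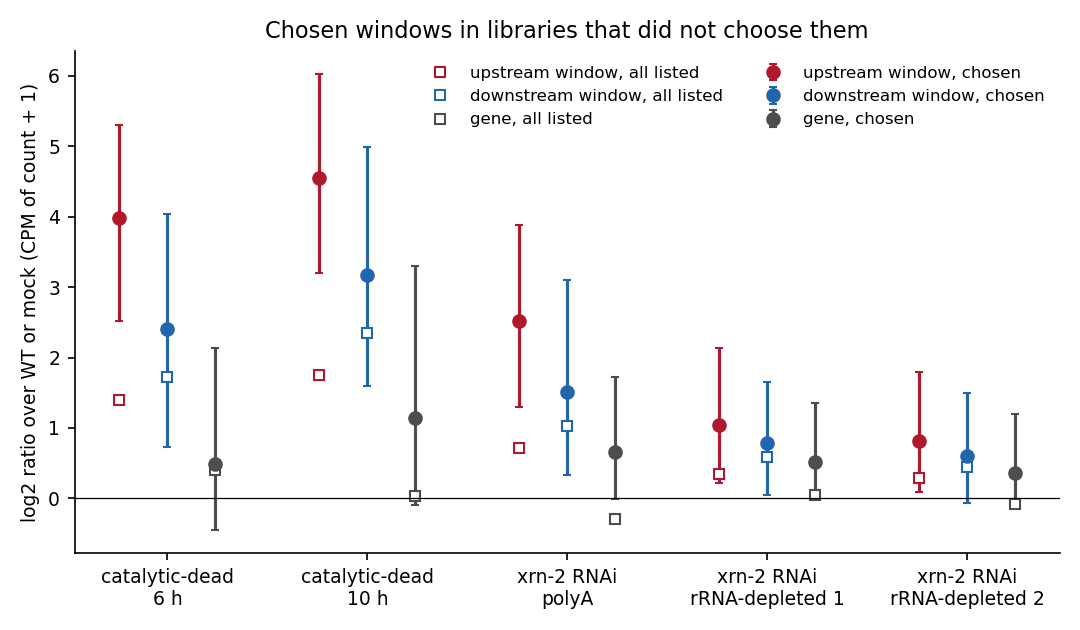
Median log2 ratio (CPM of count + 1, y axis, bars from the 25th to the 75th percentile of windows) of chosen upstream windows, downstream windows and genes in each library that did not choose them over its WT or mock library (x axis), with open squares for all listed. The upstream medians are 3.99 and 4.56 in catalytic-dead, 2.52 in polyA xrn-2 RNAi and 1.05 and 0.82 in the rRNA-depleted libraries.

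Most chosen windows measured in all 3 polyA-selected experiments were up in each. Of 1034 chosen windows tested in late xe31 and in catalytic-dead and counted in the polyA RNAi pair, 880 were up in all 3 (85.1%) and 5 in none, against 29.8% up in all 3 of the 4202 windows measured alike. Many of the 1034 passed the count limits through the libraries with impaired XRN2, so this share is partly set by the limits. With enough WT counts, 501 chosen windows were left in late xe31 and 311 in catalytic-dead. Their overlap was not counted. Of the 566 also tested in the rRNA-depleted set, 487 had a positive log2 change there and 302 were at least 2-fold higher (86% and 53.4%), against 64.3% and 29.6% of the 2378 such windows in all. The changes in late xe31 and in the polyA pair had a Spearman rho of 0.457 across 1036 windows, again a description.

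The position of the windows relative to neighbouring genes was read from the gene order of RefSeq WBcel235, in which 1967 of the chosen genes were found among protein-coding genes. Of these, 616 lie next to another chosen gene, in 216 pairs, 34 runs of 3, 9 of 4, 8 of 5 and 1 of 6. The run of 6 joins the patched-related gene ptr-21, lpr-1, Y65B4BR.1, the homeobox gene ceh-9, grl-16 and F56A6.5, with rule ratios from 16.1 to 189. A run of 5 consists of the collagen genes col-167 to col-171, with ratios from 18.7 to 198.

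The chosen windows often lie beside a gene whose downstream window rose. In late xe31, 75.4% of 1512 chosen windows had a flanking gene, on either side and whatever its strand, with a downstream window called up, against 53.2% of 4943 other windows tested. In catalytic-dead the shares were 73.0% of 1658 and 65% of 6502. The difference was not tested. The chosen windows with such a neighbour had a median late log2 change of 3.51, against 3.50 for the 528 without. In catalytic-dead these medians were 5.35 and 4.44 (554 without). The windows without include those whose flanking downstream windows were not tested, so the medians do not compare called with uncalled neighbours. In 25 chosen windows the counts in all 22 time-course libraries were the same as those of a downstream window of another gene, so the 2 windows can cover the same reads. Reads of overlapping or antisense genes cannot be told apart here, since the use of strand in counting was not stated. Whether reads in a chosen window begin in a neighbouring gene was not tested.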

How the data were processed

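The members, gene lists and tests were chosen with earlier results of these data known. The authors deposited whole-number read counts per gene and per window upstream and downstream of each gene, per the file headers. Genome build ce10 is named per the submitters' processing notes. The aligner, the counter, the use of strand and the length and position of the windows were not given in the sources used here. Upstream is taken to mean before the gene start. Libraries were made with TruSeq Standard mRNA (polyA) or Ovation Universal (rRNA-depleted), per the labels' protocols. Chromatin immunoprecipitation libraries were not analysed here, and 12 count columns of another series were not used. Symbols were found for 42362 of 44200 gene IDs (95.8%), and RefSeq WBcel235 served only for names and gene order.

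The quasi-likelihood method of edgeR 4.0.16 was applied to these counts (R 4.3.3, TMM, Benjamini-Hochberg adjustment over the whole table, threshold 0.05), with DESeq2 1.42.0 as an alternative, and the code was checked on simulated data. Windows needed 20 counts over the time course or 10 over the smaller sets, and genes had to pass filterByExpr at 10. Floors of 3 counts and intervals cover counting error only. Where the hours are used as replicates, the time-course windows of 6 to 9 h, 3 to 5 h and 0 to 2 h were each given 1 strain effect. Named windows are the 10 with the largest rule ratio, the most counts and the largest catalytic-dead change, the 5 largest in each RNAi set, the 5 nearest the threshold on either side, the 5 called windows whose gene changed least and most, up to 5 that fell in each test, and xrn-2. The planned motif search was not run, since no sequence was used here. In the pathway list fip-1 is left out, since in C. elegans the symbol names a fungus-induced protein.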

Additional observations from a re-analysis of the deposited data

Results flagged for a closer look

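The strain effect differed between the late and the early hours in some of the 1757 chosen windows tested. It was larger at 6 to 9 h than at 0 to 2 h in 282 and smaller in 2 (edgeR test of the difference, BH-adjusted). Among all 7980 windows tested 5.19% were larger and 0.827% smaller. DESeq2 called 149 chosen windows larger and 0 smaller. The window of ndus-8 had a late minus early log2 difference of 2.74 ± 0.56 (BH-adjusted p = 4.41e-04).

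The 2 windows with the smaller late effect were W08E12.2, with a late minus early log2 difference of -2.47 ± 0.68 (edgeR, BH-adjusted p = 0.00887), and Y47D3B.12, with -2.30 ± 0.77 (edgeR, BH-adjusted p = 0.0475). The W08E12.2 window held 9, 12 and 28 counts in xe31 at 0 to 2 h, against 2, 3 and 0 in WT, and 57, 19, 25 and 49 counts in xe31 at 6 to 9 h, against 66, 39, 8 and 1 in WT. The Y47D3B.12 window held 8, 8 and 15 counts in xe31 at 0 to 2 h, against 3, 0 and 2 in WT, and 20, 8, 8 and 7 in xe31 at 6 to 9 h, against 35, 8, 2 and 0 in WT. Both calls were lost with DESeq2, with filterByExpr, with the 10 h libraries included and without the hour block. Both were also lost without the libraries of 2 h, 6 h or 7 h. That of Y47D3B.12 was lost without those of 1 h or 4 h and with no minimum count too.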

How the results depend on the processing

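No paired analysis was possible because the groups compared share fewer than 2 replicate numbers; strains were paired by hour instead, as a block in the time course and the catalytic-dead set. A minimum of 100 counts in the rule chose 1399 windows. Chosen windows called up under DESeq2 were 1002 (late), 138 (middle), 23 (early), 149 (late minus early), 764 (catalytic-dead upstream), 661 (catalytic-dead downstream) and 41 (rRNA-depleted). With filterByExpr, 994 late windows and 866 window-to-gene ratios passed, since fewer windows were tested. Without the hour block 209 middle, 29 early and 145 late minus early windows were called, and of late genes 349 rose and 28 fell. Without TMM, 103 late genes fell (median log2 0.24), 26 catalytic-dead genes rose and 10 fell, and the rRNA-depleted medians were 1.17 (windows) and 0.42 (genes). Catalytic-dead genes up and down were 459 and 223 with DESeq2, 212 and 58 with no minimum count, and 402 and 77 without the hour block. DESeq2 called 124 rRNA-depleted genes up and 44 down, and 0 windows rose there with no minimum count. Against WT of 1 hour earlier 88 late genes fell. Against WT of 1 hour later mpz-6 turned to log2 0.17 in the middle hours and the late minus early difference of Y47D3B.12 to 1.54. Except for the smaller number of windows tested, the cause was not tested.

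Leaving out 1 hour at a time gave 1295 to 1609 late, 173 to 363 middle, 34 to 90 early and 183 to 319 late minus early windows up (early median log2 0.47 to 0.76), and 140 to 233 late genes down. With 1 hour or library alone, medians were 3.99 to 4.56 (catalytic-dead upstream), 0.49 to 1.15 (its genes), 2.40 to 3.18 (its downstream windows), 0.82 to 1.05 (rRNA-depleted windows) and 0.36 to 0.51 (its genes). Of the values for whole groups of windows or genes under an alternative, 284 stayed within the limits set and 45 did not. Depth limits the windows with few counts in WT and those of the rRNA-depleted set.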
